A study of Mus musculus with 12 samples.

Results

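Immediate early genes are switched on within minutes of a stimulus, from transcription factors that are already in the cell, and their mRNAs are degraded again soon after. Growth factors act on them through the ERK kinase cascade, which activates SRF and its Elk partners, while cAMP and calcium act through Creb1. Because the mRNAs are short-lived, their level reflects how strongly the cells were stimulated shortly before or during harvest. Neural stem cultures are grown in growth factors throughout. The 10 genes described here, chosen by name, are Fos, Fosb, Fosl1, Fosl2, Jun, Junb, Jund, Egr1, Egr2 and Ier2, of 24525 genes in the count tables. The Fos and Jun proteins pair to form the AP-1 transcription factor, Egr1 and Egr2 are zinc finger transcription factors, and Ier2 is a small nuclear protein of the same early response.

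The libraries come from neural stem/progenitor cells (NSPCs) of C57BL/6 mouse embryos at E14.5, grown as neurospheres in 20 ng/ml EGF and 10 ng/ml bFGF and taken at passage P1. There were 3 wild-type and 3 Ythdf2-/- samples, here called WT1 to WT3 and KO1 to KO3 after the numbers in their labels. In the Ythdf2-/- embryos a ubiquitously expressed Cre had removed the region from the 5′ UTR through exon 1 of Ythdf2, which encodes a protein that binds m6A-modified mRNA and promotes its decay, so the deletion was in every cell and not limited to the neural lineage. The RNA is fragmented mRNA set aside as input before an m6A immunoprecipitation, whose 6 libraries were not analysed here. RNA was taken from cells dissociated from the spheres, and no stimulus other than the growth factors is named in the sources. Whether the dissociation itself acted as a stimulus was not tested. The question put to these genes was how far they differed between libraries and between genotypes.

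The libraries held 11029827 to 13185778 counted reads, and 13112 genes passed the filter on low counts. Ythdf2 itself stood at 71.9 to 91.4 reads per 1000000 counted reads (CPM) in wild type and 11.1 to 14.7 in Ythdf2-/-, so each library matched its genotype label. WT3 stood apart from the rest: its mean Spearman correlation with the other libraries over the genes tested was 0.900, against 0.962 to 0.970 for the others. Reads from 4 Y-linked genes numbered 1111, 1638 and 2147 in WT1, WT2 and KO3 but 0 or 1 in WT3, KO1 and KO2. The labels give no sex for any sample. Neural progenitor markers were present in every library, with a summed level of 3536 to 6559 CPM over 10 genes in wild type, the lowest in WT3, and 4912 to 6598 CPM in Ythdf2-/-. The low sum in WT3 came from Nes, Vim and Fabp7, and the other 7 markers, among them Sox2 and Pax6, were highest in WT3.

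Sequence elements linked to rapid induction and rapid decay were looked for in the promoters and 3′ UTRs of the members. AU-rich elements, in which the pentamer ATTTA recurs, are sites in a 3′ UTR where RNA-binding proteins promote decay. They are shown because a short half-life is what makes these mRNAs a record of recent stimulation. One window of 30 bases from the 3′ UTR is given for 7 of the members, written 5′ to 3′ on the gene's own strand with ATTTA in capitals. The sequences are from the GRCm38.p6 genome with RefSeq transcripts, the same assembly as the mm10 used for the files.
Fos, chr12:85477101-85477130, plus strand: tgtgttttcaATTTATTTAttaagatggat
Fosb, chr7:19303325-19303354, minus strand: ccacccccagctATTTAtccctttcctggt
Fosl2, chr5:32156865-32156894, plus strand: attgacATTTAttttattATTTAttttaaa
Jun, chr4:95049078-95049107, minus strand: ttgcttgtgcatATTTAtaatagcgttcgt
Junb, chr8:84977126-84977155, minus strand: atatatttgtgtATTTAacagggaggggag
Jund, chr8:70700359-70700388, plus strand: cgattccgccctATTTAtgtttctactcgg
Egr2, chr10:67541645-67541674, plus strand: cagtgtatatccATTTAgattttgtgtatt

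Fos carries overlapping ATTTA pentamers in the window shown and 4 in its 3′ UTR of 816 bases, or 4.90 per kb. Junb followed with 2 in 486 bases (4.12 per kb) and Jun with 4 in 1231 bases (3.25 per kb). Fosb had only 1 in 2145 bases (0.466 per kb), and no ATTTA was found in the 3′ UTR of Ier2. In all, 8 of the 9 members had at least 1, with a median density of 1.88 per kb, beside 69.4% of the 12449 genes tested that had a 3′ UTR and a median of 1.33 per kb. The heptamer TATTTAT was in 5 of the 9, beside 29.9% of all genes. GGACT, a common form of the sequence that is m6A-methylated, had a median density of 1.62 per kb in the members' 3′ UTRs and 0.695 per kb over all genes. Jund (5.63 per kb) and Ier2 (5.30 per kb) had the highest densities among the members. These are matches of letters, and which of them are bound or methylated is not in the count tables.

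Promoter windows, from 250 bases before to 50 after each start, were at hand for 7 of the 10 members: Fos, Fosb, Fosl2, Jun, Junb, Jund and Egr2. A CArG box, the element that SRF binds, was found in the window of Egr2, beside 1.63% of 32851 promoter windows searched on both strands. The letters TGACGT, the core of the cAMP response element to which Creb1 binds, were found in Fos and Egr2, beside 7.51% of all windows. The full palindrome TGACGTCA, which contains that core, was in none of the 7 and in 1.79% of all. GCGNGGGCG, to which Egr proteins bind, was in Fosb and Fosl2, beside 5.55% of all. TGANTCA, the AP-1 site, was in none of the 7 and in 7.81% of all. Elements more than 250 bases before a start were not searched, so a motif not found in Fos or another member may lie further upstream. A site of Fos and a site of Egr2, the gene with both TGACGT and a CArG box in its window, are shown. TGACGT or the CArG box is in capitals.
Fos, chr12:85473812-85473841, plus strand, site beginning 66 bases before the start: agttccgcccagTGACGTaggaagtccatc
Egr2, chr10:67537787-67537816, plus strand, site beginning 72 to 133 bases before 3 annotated starts: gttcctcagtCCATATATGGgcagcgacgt

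Fos spanned the widest range of CPM among the AP-1 genes, though not the widest ratio. Its 4 exons occupy 85473890 to 85477274 of chromosome 12, plus strand. Fos stood at 350.0, 414 and 2222 CPM in WT1, WT2 and WT3, and at 264, 563 and 139.5 CPM in KO1, KO2 and KO3. WT3 was 5.81 times the mean of the other wild-type libraries and KO2 was 4.04 times KO3, so a large spread was present within each genotype. Ranked by CPM among all genes, Fos was 15th in WT3 and 1703rd in KO3. Fosb (chromosome 7, 19302696 to 19310118, minus strand) encodes a protein that can replace Fos in AP-1. It too was highest in WT3, second in KO2 and lowest in KO3, over a wider ratio, with 33.5, 32.3 and 322 CPM in wild type and 23.0, 83.2 and 10.1 CPM in Ythdf2-/-. Its highest library was 32.03 times its lowest, the widest ratio of the 9 members tested, and its lowest value still rested on 125 reads.

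Fosl2 and Fosl1 encode the Fos-related antigens, which accumulate more slowly after a stimulus than Fos. Fosl2 (chromosome 5, 32136472 to 32157840, plus strand) stood at 11.5, 13.2 and 21.1 CPM in wild type and at 14.3, 10.96 and 10.5 CPM in Ythdf2-/-. It ranged only 2.01-fold over the libraries and was the member in which KO2 was not the second highest. Fosl1 had 1 read in each wild-type library and 4, 1 and 0 reads in KO1, KO2 and KO3. It did not pass the filter, and no comparison was made. Fosl1 occupies 5447698 to 5455938 of chromosome 19, plus strand, and 67.7% of its exon bases are also exon bases of Ccdc85b on the opposite strand. Ccdc85b had 202 to 337 reads per library. The strand setting of the counting is not given in the sources used here, so reads of these genes may not have been told apart and the count of Fosl1 is uncertain. Of the other members, Egr2 alone shares exon bases with another annotated gene, with 4.0% of its bases opposite Gm32255.

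The Jun genes each consist of a single exon. Jun (chromosome 4, 95049036 to 95052222, minus strand) stood at 162, 150.4 and 655 CPM in wild type and at 151, 194 and 145 CPM in Ythdf2-/-. All libraries but WT3 lay within a narrow band. Junb (chromosome 8, 84976909 to 84978748, minus strand), which often dampens the activity of Jun, stood at 37.0, 34.3 and 202 CPM in wild type and at 35.6, 38.4 and 13.9 CPM in Ythdf2-/-. It was 5.68 times as high in WT3 as in the mean of WT1 and WT2, and lowest in KO3. Jund (chromosome 8, 70697739 to 70700616, plus strand), the Jun gene that most cells express without stimulation, stood at 40.2, 26.8 and 80.3 CPM in wild type and at 25.8, 50.8 and 27.7 CPM in Ythdf2-/-. It was the member whose lowest library was KO1 and not KO3, and the only one in which WT1 and WT2 differed by as much as 1.5-fold.

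Egr1 (chromosome 18, 34861207 to 34864956, plus strand) was the most abundant member by CPM in every library but WT3, with 1016, 1063 and 2009 CPM in wild type and 978, 1504 and 828 CPM in Ythdf2-/-. Its range was 2.43-fold, narrower than that of Fos, Fosb, Jun, Junb, Jund, Egr2 and Ier2. Egr2 (chromosome 10, 67534469 to 67542188, plus strand) stood at 39.6, 48.0 and 99.1 CPM in wild type and at 47.0, 96.6 and 38.9 CPM in Ythdf2-/-. The top libraries of the 2 genotypes were nearly level for Egr2, with a ratio of WT3 to KO2 of 1.03. Ier2 (chromosome 8, 84661331 to 84662852, minus strand) stood at 58.2, 60.4 and 151 CPM in wild type and at 57.3, 117 and 35.1 CPM in Ythdf2-/-. In Ier2 and Egr1, WT3 was 1.29 and 1.34 times KO2, whereas it was 5.27 times KO2 in Junb and 3.95 times KO2 in Fos.

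**Figure D1:**
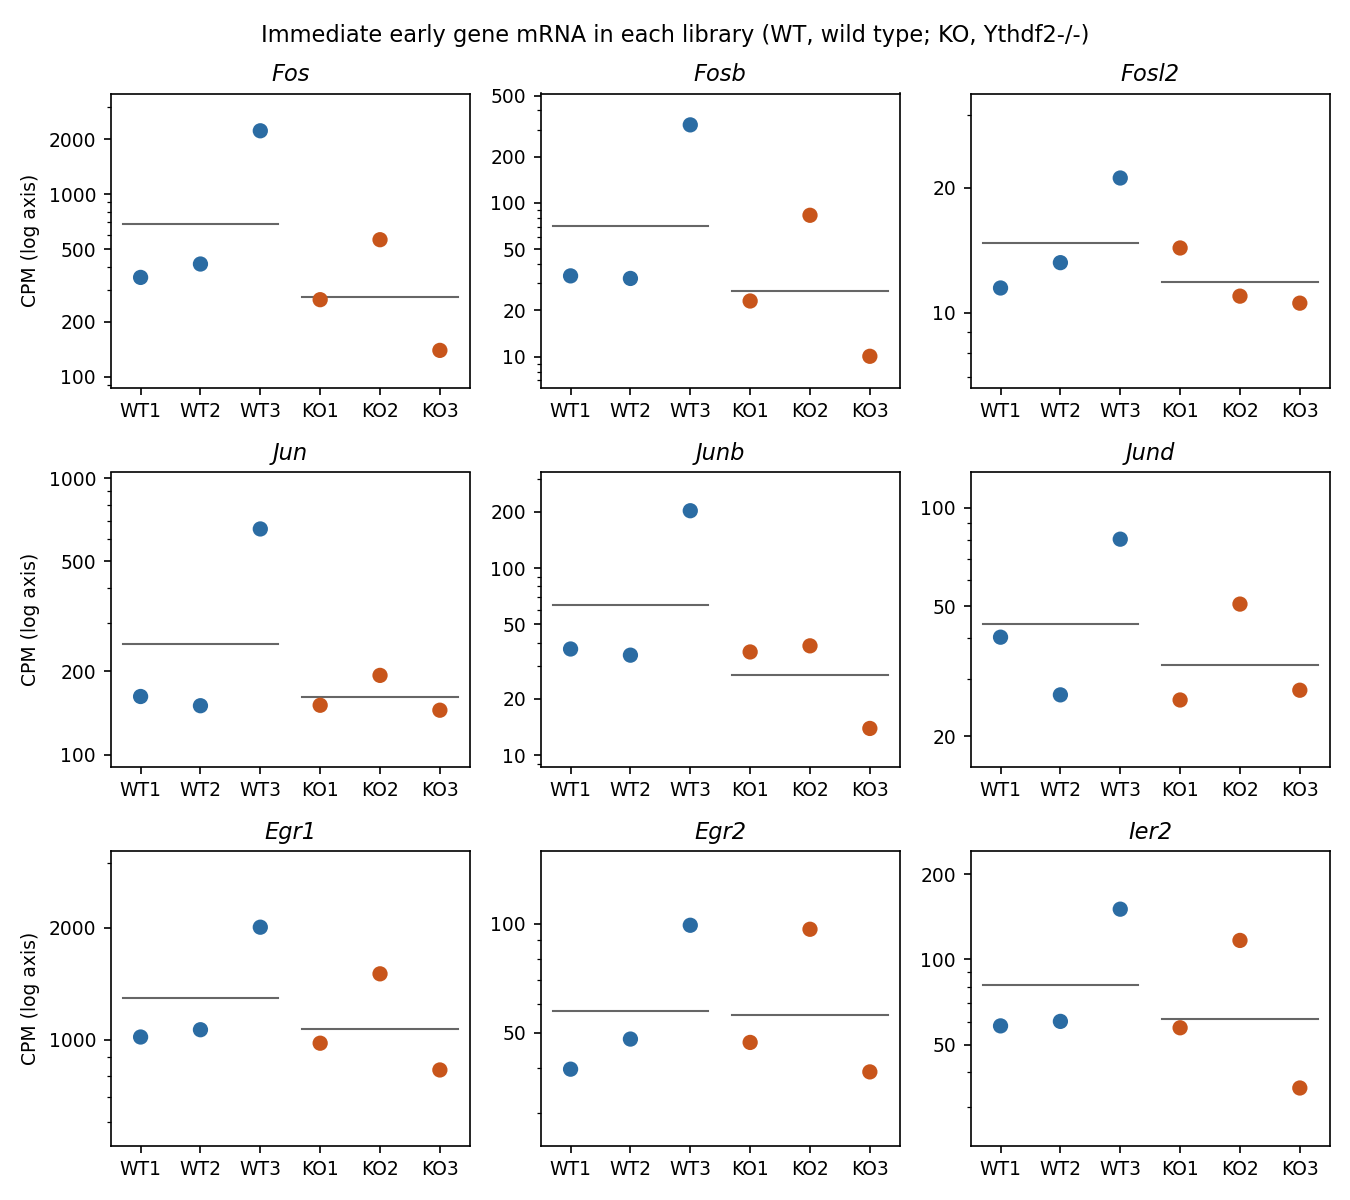
CPM of the 9 members tested in each library, on log axes that differ between panels. Blue points are the wild-type libraries (WT1 to WT3), orange points the Ythdf2-/- libraries (KO1 to KO3), and the grey lines the mean of log2 CPM in each genotype. WT3 is the highest point in all 9 panels, KO2 the second highest in 8 and KO3 the lowest in 8, and the genotypes overlap in every panel.

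The order of the libraries was thus nearly the same for all members. WT3 was the highest library for all 9 members tested, beside 33.8% of the 13112 genes. KO2 was the second highest for 8 of them, with Fosl2 the exception, and the share of all genes with KO2 second was not computed. KO3 was the lowest for 8, with Jund the exception, beside 16.9% of all genes. Averaged over the 9 members, log2 CPM was 1.51 above the mean of the libraries in WT3 and 0.35 above it in KO2. The average was -0.25, -0.26 and -0.39 in WT1, WT2 and KO1 and -0.96 in KO3. Together the 10 members took 0.571% of the counted reads in WT3, 0.273% in KO2 and 0.123% in KO3.

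The members also varied together. Over the 6 libraries, the Pearson correlation of log2 CPM between pairs of members had a median of 0.89 over 36 pairs and ranged from 0.51 to 0.99. Fos with Fosb and Fosb with Egr1 reached 0.99, and the pairs with Fosl2 had a median of 0.72. Over the 5 libraries without WT3, the median over the 36 pairs was 0.76 and the lowest was -0.57. It was 0.86 for the 28 pairs that leave out Fosl2 and -0.05 for the 8 pairs with Fosl2. The points of these correlations are whole libraries that share the cells and the depth of each culture, and they are given as a description. The genes most like the members' mean over 6 libraries were Rnd3 (r = 0.998), Stk32a, Lsm14b, Tle4 and Eml5, with 274 other genes tested above 0.95. Over the 5 libraries without WT3 they were Ip6k3, Zfp711, Katna1, H2afy2 and Bcdin3d, with 262 genes above 0.95. The lists named from the 2 sets of libraries have no gene in common.

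Within a genotype the members spread more widely than most genes. The SD of log2 CPM among the wild-type libraries had a median of 0.80 over the 9 members, from 0.46 in Fosl2 to 1.90 in Fosb, beside a median of 0.33 over all genes tested. Among the Ythdf2-/- libraries the medians were 0.69 and 0.20. WT1 and WT2, on the other hand, lay as close for the members as for other genes, with a median SD of 0.08 in both sets. The difference of WT3 from the mean of WT1 and WT2 had a median of 1.34 on the log2 scale over the members and 0.02 over all genes.

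Per length of mRNA the members covered a wide range, and the leading gene changed between libraries. Expressed as CPM per kb of transcript (RPKM), the mean level over the 6 libraries was 401 ± 144 (SD, n = 6) for Egr1, 315 ± 372 for Fos, 76.2 ± 63.6 for Jun and 52.4 ± 29.0 for Ier2. Junb (32.8 ± 38.2), Fosb (22.3 ± 31.6), Egr2 (20.8 ± 9.57) and Jund (14.6 ± 7.36) followed. Fosl2 was at 2.32 ± 0.676 and Fosl1 at 0.0654 ± 0.0688. Most neighbours in this order lay within each other's spread over the libraries, but within a library the order was mostly kept. Egr1 exceeded Fos, Jun exceeded Ier2, Ier2 exceeded Junb, Junb exceeded Fosb and Egr2 exceeded Jund in 5 of 6 libraries each. Fosb exceeded Egr2 in 1 of 6 libraries only, although its mean was higher. Fos exceeded Jun, Jund exceeded Fosl2 and Fosl2 exceeded Fosl1 in 6 of 6.

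The library in which Fos led Egr1 per length was WT3. There Fos was at 1061 RPKM and Egr1 at 654, a ratio of 1.62. In the other libraries that ratio ran from 0.247 in KO3 to 0.572 in WT2. Summed over the family, Fos, Fosb and Fosl2 reached 1150 RPKM in WT3 against 343 for Jun, Junb and Jund, and 71.1 against 62.6 in KO3. The ratio of the Fos to the Jun family per length was therefore 3.35 in WT3, 2.95 in KO2 and 1.14 in KO3. Fos made up 91.8% to 94.8% of its family in all libraries, and the share of Fosb was 7.42% in WT3 and 7.52% in KO2 against 3.75% to 4.99% in the others. Junb made up 32% of the Jun family in WT3 and 12.1% in KO3, and Jun made up 59.9% to 72.6%.

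**Figure D2:**
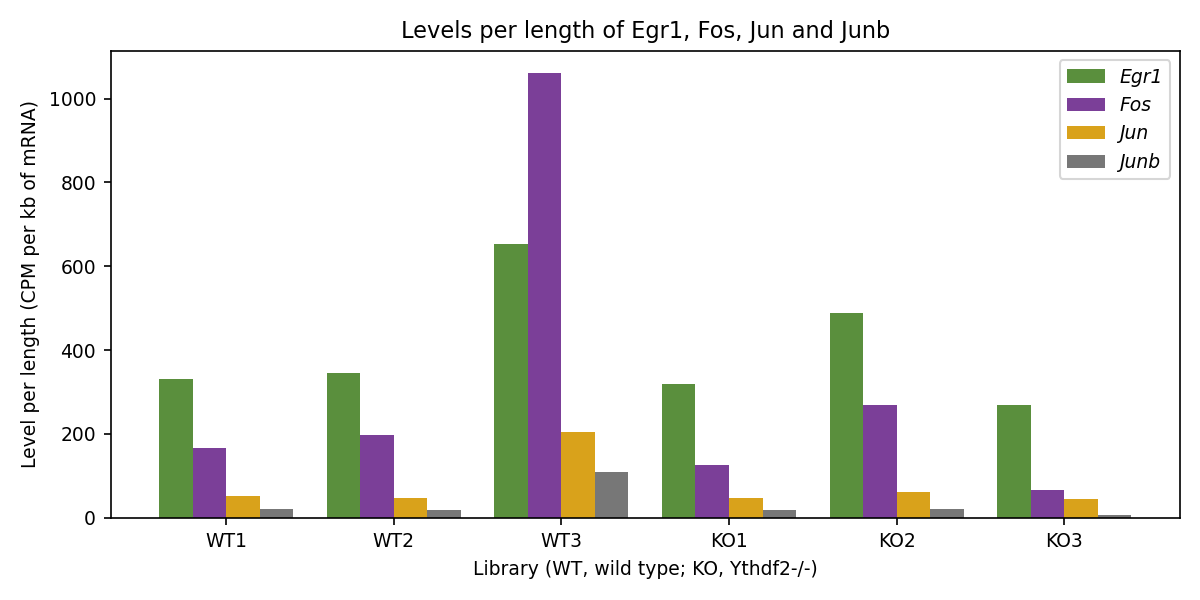
Level per length (CPM per kb of mRNA) of Egr1, Fos, Jun and Junb in each library, on a linear axis from 0. Each bar is 1 library. Fos exceeds Egr1 in WT3 (1061 against 654) and lies below it in the other 5 libraries.

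Between genotypes, none of the 9 members tested passed the threshold, by any tool run on the counts. In edgeR's quasi-likelihood test with Benjamini-Hochberg adjustment, 0 members had an adjusted p under 0.05 and 0 had an unadjusted p under 0.05, where 0% and 3.63% of the 13112 genes did. DESeq2 gave 0 members at an adjusted p under 0.05 and 2, Fos and Junb, at an unadjusted p under 0.05, beside 4.27% of all genes. Limma-voom gave 0 at both, beside 3.47% of all genes at an unadjusted p under 0.05. Limma on log2(FPKM + 1) and on log2(FPKM + 0.1), which take in 7 of the members, gave 1 member each, Fos, at an unadjusted p under 0.05, beside 4.38% and 4.09% of all genes. All 9 fitted values were below 0, that is, lower in Ythdf2-/-. Their median on the log2 scale was -0.50, beside -0.01 over all genes. No member had genotypes that did not overlap, where 10.2% of all genes did. The exact permutation test (two-sided, 3 against 3 libraries) gave p of 0.4 to 0.7 for the members, and 0.1 is the smallest this design allows.

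The largest fitted differences belonged to the members with the largest spread. Junb was at 91.2 ± 96.3 CPM (SD, n = 3) in wild type and 29.3 ± 13.4 in Ythdf2-/-, a log2 fold change of -1.64 with a 95% interval from -3.58 to 0.30 (edgeR, adjusted p = 0.999). Fos was at 995 ± 1062 and 322 ± 218 CPM, a log2 fold change of -1.63 (interval -3.73 to 0.48, edgeR adjusted p = 0.999). Fosb was at 129 ± 167 and 38.7 ± 39.0 CPM, with -1.74 (interval -4.57 to 1.09, edgeR adjusted p = 0.999). For Jun the value was -0.98 with a standard error of 0.597. Those of Jund, Ier2, Fosl2 and Egr1 were -0.50, -0.36, -0.35 and -0.30, and that of Egr2 was -0.03. The SD in wild type exceeded the difference of the means in Junb, Fos and Fosb.

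Leaving out WT3 changed the sign of the median. Without it, the members' median log2 fold change was 0.06, 6 of 9 members were above 0 and 3 below, and 0 had an unadjusted p under 0.05, beside 16.6% of the genes then tested. Fos moved to -0.25 (interval -1.55 to 1.06) and Junb to -0.28 (interval -1.27 to 0.71). Fosb moved to 0.24, Ier2 to 0.24 and Egr2 to 0.47, each with an interval that spans 0. Jun moved to 0.06 with an interval from -0.30 to 0.42, the narrowest of the 9. Leaving out KO2 moved the other way, to a median of -0.94, and Fos, Fosb, Egr1 and Ier2 then had genotypes that did not overlap, beside 22.1% of all genes. Without WT2 the median was -0.79, and without WT1, KO1 or KO3 it lay from -0.62 to -0.36.

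The libraries with and without Y-linked reads were also compared separately. The order already given, with WT3 highest and KO3 lowest, fixes nearly all directions within each class, so no count is read from them. Fos in KO3 was 0.365 times the mean of WT1 and WT2, Fosb 0.306 times, Junb 0.391 times and Jun 0.926 times. With a term for Y-linked reads in edgeR, 5 members had an unadjusted p under 0.05, beside 11% of all genes. They were Junb (log2 fold change -1.92), Fos (-1.94), Fosb (-2.18), Ier2 (-0.77) and Jun (-1.02), and the lowest adjusted p among the members was 0.148. WT3 is the only wild-type library of one class and KO3 the only Ythdf2-/- library of the other, so within each class the genotype of 1 arm rests on 1 library.

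**Figure D3:**
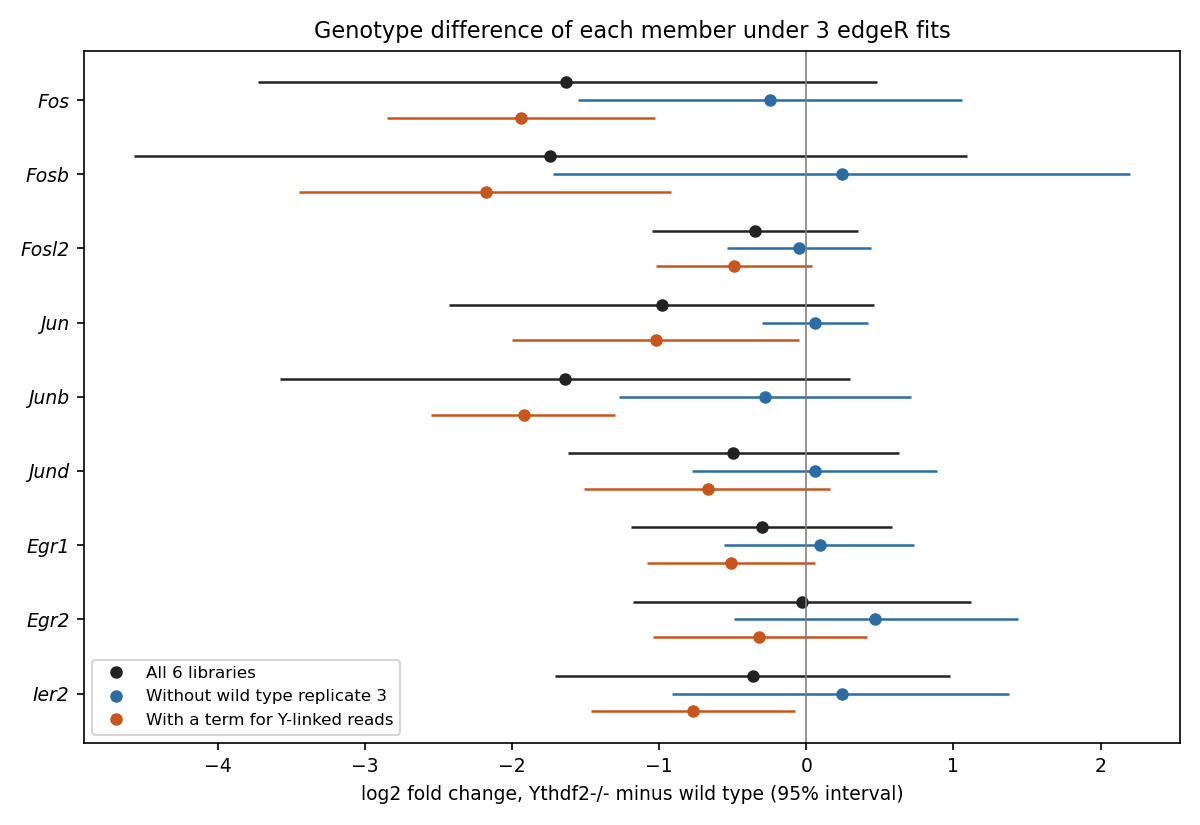
Log2 fold change (Ythdf2-/- minus wild type) of each member with its 95% interval from edgeR, in 3 fits. Black uses all 6 libraries, blue leaves out WT3 and orange adds a term for Y-linked reads. The black intervals all span 0, the blue values lie between -0.28 and 0.47, and the orange intervals of Fos, Fosb, Jun, Junb and Ier2 lie below 0.

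Of 40 other immediate early and primary response genes, 39 were tested, and they fell into groups with different orders of libraries. In edgeR, 6 had an unadjusted p under 0.05, beside 3.63% of all genes, all lower in Ythdf2-/-, and 0 an adjusted p under 0.05. Without WT3, 6 of the 39 had an unadjusted p under 0.05, beside 16.6% of all genes, 4 lower and 2 higher in Ythdf2-/-, and 3 of them, Socs3, Ier3 and Ctgf, were shared with the 6 from all libraries. The median log2 fold change was -0.22, and -0.15 without WT3. The 6 from all libraries were Socs3, an inhibitor of JAK-STAT signalling, Atf3 and Maff, bZIP transcription factors, Zfp36, which binds AU-rich elements and promotes decay, Ier3 and Ctgf. Socs3 stood at 40.4, 59.1 and 476 CPM in wild type and at 15.3, 15.4 and 3.46 CPM in Ythdf2-/-, a log2 fold change of -4.07 (edgeR adjusted p = 0.999), and -2.13 without WT3 (adjusted p = 0.199). Zfp36 stood at 50.9, 62.0 and 289.7 CPM in wild type and at 26.5, 50.9 and 18.3 CPM in Ythdf2-/-. Its log2 fold change was -2.07, and -0.82 without WT3.

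By mean CPM over the 6 libraries, the 4 most abundant genes of this list were Mcl1, Btg2, Klf6 and Socs3, the last through WT3 alone, since it was at most 59.1 CPM elsewhere. Btg2, an antiproliferative gene, was not highest in WT3. It stood at 127, 121 and 311 CPM in wild type and at 107, 330 and 66.9 CPM in Ythdf2-/-, so that KO2 was highest. Egr3, a relative of Egr1, likewise stood at 39.7 CPM in WT3 and 45.5 CPM in KO2, against 12.6 to 21.4 CPM in the others. Klf6 and Mcl1, like Socs3, were highest in WT3 with 267 and 265 CPM. In all, WT3 was the highest library for 18 of the 39 and the lowest for 6, beside 33.8% and 34.4% of all genes. Klf10, chosen after its values were seen, was among the 6, with 18.2 CPM in WT3 and 40.4 to 127 CPM in the others.

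Several genes that restrain ERK were lowest in WT3, where the members were highest. The phosphatases of the Dusp family that act on ERK and the Spry and Spred proteins are themselves induced by ERK activity and limit it. Dusp6, which dephosphorylates ERK in the cytoplasm, stood at 267, 273 and 25.9 CPM in wild type and at 169, 98.4 and 336 CPM in Ythdf2-/-. It was thus lowest in WT3 and highest in KO3, where 8 of the members were lowest. Spry4 stood at 243, 230.2 and 14.7 CPM in wild type and at 146, 97.7 and 224 CPM in Ythdf2-/-, and its mean in WT1 and WT2 was 16 times its level in WT3. Spry2 and Spred1 were also lowest in WT3, at 184 and 164 CPM, and highest in KO3, at 372 and 344 CPM.

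Of 17 Dusp, Spry and Spred genes 16 were tested, and WT3 was the lowest library for 11 and the highest for 4, beside 34.4% of all genes lowest and 33.8% highest in WT3. The median difference of WT3 from the mean of WT1 and WT2 was -0.78 on the log2 scale. The list holds Dusp8, Dusp10 and Dusp16, which act mainly on JNK and p38, and of the other 13 genes 9 were lowest and 4 highest in WT3. Over the 6 libraries Pearson's r with the members' mean was -0.96 for Dusp6 and -0.93 for Spry4, and without WT3 it was -0.83 and -0.68. Nab2, a co-repressor of Egr proteins whose gene Egr1 induces, stood at 10.4 CPM in WT3 and at 40.4 to 107 CPM in the other libraries, also with KO2 second lowest. Between genotypes, 0 genes of the list had an unadjusted p under 0.05 in edgeR, and the median log2 fold change was 0.09, and -0.06 without WT3.

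**Figure D4:**
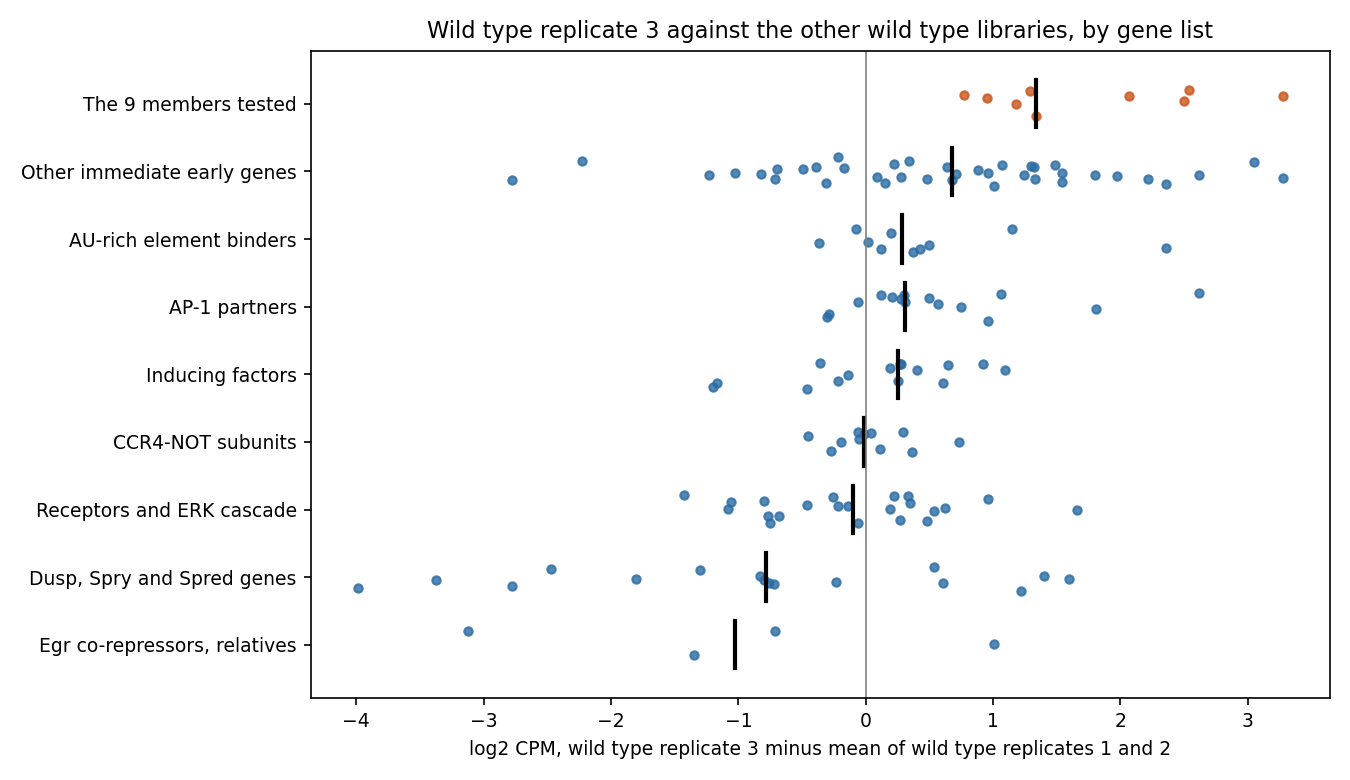
Difference in log2 CPM between WT3 and the mean of WT1 and WT2 for the genes tested in each list, with 1 point per gene, a black bar at the median of the list and the members in orange. The members lie from 0.77 to 3.28, while the median of the Dusp, Spry and Spred genes is -0.78 and that of the CCR4-NOT subunits is -0.01.

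Upstream of the members lie the receptors and kinases. Of 22 growth factor receptors and ERK cascade genes, 0 had an unadjusted p under 0.05 in edgeR, with a median of -0.04 on the log2 scale, and without WT3 5 did, beside 16.6% of all genes. WT3 was the highest library for 8 of the 22 and the lowest for 9, beside 33.8% and 34.4% of all genes. Egfr, the receptor of the EGF in the medium, stood at 456, 473 and 223 CPM in wild type and at 520, 683 and 678 CPM in Ythdf2-/-. Every Ythdf2-/- library was above every wild-type library (log2 fold change 0.71, edgeR adjusted p = 0.999), as in 1 direction or the other for 10.2% of all genes. Fgfr1, a receptor of the bFGF, was lowest in WT3 (164.5 CPM) and in KO2 (175 CPM), against 209 to 295 CPM elsewhere. Fgfr3 was likewise lowest in WT3, at 79.8 CPM. Fgfr2, chosen after its values were seen, was higher in WT3 than in the mean of WT1 and WT2, by 1.66 on the log2 scale.

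Of 15 transcription factors and coactivators that act at immediate early promoters, 1, Elk4, had an unadjusted p under 0.05, beside 3.63% of all genes. Without WT3, 4 did, beside 16.6%. Elk4 stood at 18.9 to 23.5 CPM in wild type and at 26.1 to 31.2 CPM in Ythdf2-/- (log2 fold change 0.42, edgeR adjusted p = 0.999). Creb1 lay between 86.2 and 115 CPM in all libraries. Of 15 partners and regulators of AP-1 tested, 2 had an unadjusted p under 0.05, beside 3.63% of all genes. These were Atf3 and Maff, which are also among the 6 above, and without WT3 neither did. Atf4, the most abundant of them, lay between 150.4 and 199.6 CPM. Of the 4 Egr relatives and co-repressors tested, 0 did.

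Among the proteins that act on AU-rich elements, 10 were tested and 1, Zfp36, had an unadjusted p under 0.05, beside 3.63% of all genes, and 0 did without WT3. Zfp36l1, which like Zfp36 promotes the decay of such mRNAs, stood at 119, 127 and 273 CPM in wild type and at 159.9, 253 and 103 CPM in Ythdf2-/-, again with WT3 highest, KO2 second and KO3 lowest. Hnrnpd, Tia1 and Pum2 ranged from 146 to 298 CPM. Of the CCR4-NOT deadenylase, the complex to which Ythdf2 is known to bring its targets, 11 subunits were tested. None had an unadjusted p under 0.05 in edgeR, and without WT3 1 did, Cnot4, beside 16.6% of all genes. The summed level lay between 1097 and 1222 CPM in all libraries.

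Sums of glial and neuronal markers were highest in WT3, as the members were, but the glial sums did not follow the members in KO2 and KO3. Over 9 oligodendrocyte lineage markers the summed level was 3598 CPM in WT3 and 1582 to 1905 CPM in the other libraries, and of the 8 tested 5 were highest and 3 lowest in WT3. Mbp, Sox10 and Myrf, chosen after their values were seen, were 73.8, 40.8 and 22.9 times as high in WT3 as in the mean of WT1 and WT2. Olig1, Olig2 and Cspg4 were lowest in WT3, at 547, 324 and 89.9 CPM. Outside WT3 the sum was highest in KO3, where most members were lowest. Over 8 astroglial markers it was 9630 CPM in WT3 and 2881 to 6909 CPM in the others, the lowest in KO2, where most members were second highest. Over 10 neuronal markers it was 1964 CPM in WT3 and 1231 to 1451 CPM in the others, and of the 9 tested 5 were highest and 1 lowest in WT3. Dcx was at 315 CPM in WT3 and at most 13.1 CPM elsewhere, whereas Gap43 was at 55.8 CPM in WT3 and 74.1 to 176 CPM elsewhere. By genotype, the oligodendrocyte sums ran from 1582 to 3598 CPM in wild type and 1623 to 1905 CPM in Ythdf2-/-. The astroglial sums ran from 4592 to 9630 and from 2881 to 6909 CPM, and the neuronal sums from 1238 to 1964 and from 1231 to 1451 CPM. In edgeR, 5 of 8 oligodendrocyte markers had an unadjusted p under 0.05, beside 3.63% of all genes, 4 of them lower in Ythdf2-/-, with a median of -2.36 on the log2 scale. Without WT3, 1 did, beside 16.6%, and the median was -0.30. Gfap, an astroglial filament protein, stood at 437, 625 and 3046 CPM in wild type and at 127, 87.7 and 5.55 CPM in Ythdf2-/-, with no overlap of the genotypes, as for 10.2% of all genes. Its log2 fold change was -4.22 (edgeR adjusted p = 0.999), and -2.85 without WT3. It was the 1 astroglial marker of 8 with an unadjusted p under 0.05, and 2 of 9 neuronal and 1 of 10 progenitor markers had one. Microglial markers summed to 5.88 to 9.01 CPM over 10 genes, with C1qa and C1qb at 0 in every library. Endothelial markers summed to 1.01 to 3.51 CPM over 6 genes, with Cldn5 at 0. Mesenchymal markers summed to 32.4 CPM in WT3, nearly all from Pdgfrb, and 0.889 to 4.35 CPM elsewhere. The part of cell composition in the levels of the members was not tested, and in these bulk libraries more cells that express a gene and more RNA per cell cannot be told apart.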

How the data were processed

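RNA-seq input libraries of 3 wild-type and 3 Ythdf2-/- NSPC cultures were analysed, grouped by their labels. Nothing says whether the cultures came from separate litters, so p-values measure the spread between these samples. The authors aligned reads to mm10 and deposited raw counts per gene, without normalization. Per the labels, the processing notes name Bowtie2 2.2.9, RSEM 1.2.15 and featureCounts, and the paper names TopHat. The strand setting is not given in the sources used here. The authors also deposited, per library, expected counts, TPM and FPKM, whose expected counts sum to 1.97% to 2.40% of the raw counts.

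In R 4.3.3, edgeR's filterByExpr kept 13112 genes of the raw counts. Genotype, without covariates, was tested by the robust quasi-likelihood F-test of edgeR 4.0.16 after TMM scaling, and p-values were adjusted over these genes by the Benjamini-Hochberg method. The common biological coefficient of variation was 0.332. Log2 CPM used a prior count of 2. RPKM is CPM per kb of the transcript length in the deposited tables, not the deposited FPKM. DESeq2 1.42.0 and limma 3.58.1 were alternatives, the scripts were tested on simulated data, and other steps used Python 3.11.15. Limma on FPKM used log2(FPKM + 1) or log2(FPKM + 0.1). The fitted change of genes with few or 0 expected counts depends on the value added, as for Fos (-2.69 and -3.86). 3′ UTRs are the longest per gene among the transcripts the files name, from RefSeq on GRCm38.p6, and promoter windows are from RefSeq.

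The members and lists were chosen with earlier results of these data known. Genes named are the members, Ythdf2, the 4 most abundant of each list and those with an unadjusted p under 0.05, and the 5 most like the members in pattern. Other list members and the marker genes were named after their values were seen. Some list members are not reported here. Replicate numbers were not used to pair the samples in the main test, as stated in the section on processing.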

Additional observations from a re-analysis of the deposited data

Results flagged for a closer look

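Fosl1 carried a signal in the deposited gene tables that the raw counts do not show. Its expected counts were 29 to 40 per library, with a mean of 34.3, against 0 to 4 raw reads, and its deposited FPKM was 65.8 to 97.9. For the other members the expected counts were 0% to 6.37% of the raw counts, with Jund at the upper end. Ccdc85b, which shares exon bases with Fosl1 on the opposite strand, had 23.0 to 45.1 expected counts and 202 to 337 raw reads. The part of that overlap in the Fosl1 values was not tested.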

How the results depend on the processing

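No member passed an adjusted p of 0.05 in any of the 14 alternatives run on the counts, where the lowest adjusted p ran from 0.148 for Junb with the term for Y-linked reads to 1.0. The number of genes called in the whole table was 0, and it was 1 with RLE normalization, without a low-count filter or with a minimum of 10 counts per library, 13 once Y-linked reads were a term, 31 with DESeq2 and 151 with limma-voom and sample quality weights. It lay from 0 to 2 when 1 library was left out. Ythdf2 (log2 fold change -2.66, edgeR adjusted p = 0.0547) passed the threshold with RLE normalization (-2.67), no filter (-2.64), a minimum of 10 counts per library (-2.66), the term for Y-linked reads (-2.75), quality weights (-2.61) and DESeq2 (-2.67). Leaving out 1 library gave -2.78 to -2.54, past the threshold only without WT3, with -2.54.

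The members with an unadjusted p under 0.05 numbered 0, beside 3.63% of all genes. They numbered 5 once Y-linked reads were a term, beside 11%, and 2 with DESeq2, beside 4.27%. When 1 library was left out they numbered 0 to 1. The 1 was Junb, without WT1 (beside 2.82% of all genes) or without WT2 (beside 2.66%). Members whose genotypes did not overlap numbered 0 to 4 when 1 library was left out. The 4 were found without KO2, where 22.1% of all genes did not overlap. Without KO1 there was 1, and the share of all genes was not computed for that setting. The members' median log2 fold change lay from -0.94 to 0.06 when 1 library was left out, and it was 0.27 by limma on log2(FPKM + 1), over the 7 members that table allows (without Fosb and Fosl2), whose median was -0.50 on the counts and -0.29 on log2(FPKM + 0.1). The median SD of the members in wild type was 0.80, and 0.08 without WT3.

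Leaving out 1 library gave log2 fold changes of -2.94 to 0.24 for Fosb, -1.32 to 0.06 for Jun, -0.86 to 0.06 for Jund, -0.58 to 0.09 for Egr1, -0.52 to 0.47 for Egr2 and -0.94 to 0.24 for Ier2, so the sign of each turned, without WT3 and for Egr2 also without KO1 or KO3. Fos (-2.28 to -0.25), Junb (-2.02 to -0.28) and Fosl2 (-0.52 to -0.05) kept theirs. With quality weights, where WT3 had a weight of 0.0957, Fosl2 was at 0.03 and Egr2 at 0.12. By limma on log2(FPKM + 1), Jund was at 0.30, Egr1 at 0.27, Egr2 at 0.38 and Ier2 at 0.52, and on log2(FPKM + 0.1) Jund was at 0.31, Egr1 at 0.28 and Egr2 at 0.47. Fos was at -2.69 and -3.86 in these fits, the 1 member of each with an unadjusted p under 0.05, Junb at -1.0 and -2.05, Jun at -0.52 and -0.58, and Ier2 at -0.29 on log2(FPKM + 0.1). These tables rest on 0 to 43 expected counts per member and library. The causes of these changes were not tested.

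Same-numbered libraries did not deviate together from their group means (r = -0.25, -0.24 and -0.39 over the genes tested). With 3 libraries per genotype and WT3 far from the rest, these values cannot show whether the samples were paired. The main test treats the samples as unpaired. With the replicate number as a block, 0 genes were called in edgeR and 183 had an unadjusted p under 0.05, against 476 without it, and the members' median log2 fold change was -0.43 with 0 members at an unadjusted p under 0.05.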
